A study of Mus musculus with 6 samples.

Results

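The keratins and marker proteins that keratinocytes make once they have left the basal layer of the epidermis were examined in mouse skin with constitutively active Nrf2. The set comprised 10 genes, the keratins Krt1, Krt10, Krt2, Krt77, Krt78 and Krt80 and the markers Krtdap, Sbsn, Dmkn and Lypd3. Every probe set carrying one of these symbols in the platform annotation was taken, which gave 12 of the 45037 probe sets tested. Sbsn had 3 probe sets and each other gene had 1. The arrays came from 6 female littermates of mixed FVB/N/C57BL/6 background killed on postnatal day 2.5, with back skin of a single mouse on each. The 3 caNrf2 mice were K5cre-caNrf2 (tg/tg) and the 3 control mice K5cre-wt (tg/wt), so a K5cre transgene was present in both groups. The genotype field of the caNrf2 samples reads tg/g, and the treatment field names CaNrf2 on the control samples too, so groups follow the sample titles. The titles of both groups also carry the word strong, which the labels do not explain. Cre under a keratin 5 promoter acts in basal keratinocytes and in the cells that descend from them, follicles included, whereas the RNA came from whole skin with dermis, fat and muscle.

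Keratins form filaments from pairs of an acidic type I and a basic type II protein. When a basal keratinocyte moves up, it replaces the pair Krt5 and Krt14 with the type II keratin Krt1 and the type I keratin Krt10, and these dominate the spinous and granular layers. Krtdap, suprabasin (Sbsn) and dermokine (Dmkn) are secreted by the same suprabasal cells, and Lypd3 is a surface protein held by a lipid anchor. Nrf2 is a transcription factor that binds antioxidant response elements with a small Maf partner and switches on genes of detoxification and glutathione synthesis.

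Of the 10 genes, 8 had a window around an annotated start site in the RefSeq promoter table of GRCm38.p6, and Krt1 and Krt80 are not in that table. The bases upstream of the start sites of Krt77 and Krt78 are printed because these genes are the ones that passed the test below. The Krt77 stretch is chr15:101869706-101869955 and the Krt78 stretch chr15:101954288-101954537, both on the minus strand and written 5′ to 3′.
Krt77: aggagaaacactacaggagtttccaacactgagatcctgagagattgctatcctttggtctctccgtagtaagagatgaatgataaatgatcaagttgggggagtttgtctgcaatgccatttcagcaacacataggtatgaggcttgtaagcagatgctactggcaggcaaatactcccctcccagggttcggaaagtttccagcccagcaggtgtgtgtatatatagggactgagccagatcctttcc
Krt78: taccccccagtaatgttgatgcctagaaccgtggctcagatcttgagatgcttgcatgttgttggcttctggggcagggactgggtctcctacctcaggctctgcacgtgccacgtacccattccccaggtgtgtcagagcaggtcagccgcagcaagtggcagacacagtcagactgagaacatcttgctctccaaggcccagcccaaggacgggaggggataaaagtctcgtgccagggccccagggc
Windows of 250 bases before to 50 bases after the start were searched on both strands for TGACNNNGC, the core of the antioxidant response element, for TGACTCA or TGAGTCA, bound by AP-1, and for TATAAA, the TATA box. None of the 8 genes held TGACNNNGC, which 14.0% of all genes in the table held. The windows of Krt77 and Krt78 held none of these motifs, so their letters carry no capitals. For the TATA box only TATAAA was searched, so other forms of it were not counted. Sbsn, Dmkn and Krtdap, which follow each other without another gene between them in the RefSeq gene order, each held TGAGTCA, a motif found with TGACTCA in 5.95% of all genes. The matches are shown in capitals with 20 bases on each side, for Sbsn at chr7:30751445-30751491, for Dmkn at chr7:30763647-30763693 and, at a second start site, chr7:30776303-30776349, and for Krtdap at chr7:30787804-30787850, all on the plus strand.
Sbsn: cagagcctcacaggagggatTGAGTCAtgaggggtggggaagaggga
Dmkn first start: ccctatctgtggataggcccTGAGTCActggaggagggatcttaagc
Dmkn second start: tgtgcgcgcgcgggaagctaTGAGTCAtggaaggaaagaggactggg
Krtdap: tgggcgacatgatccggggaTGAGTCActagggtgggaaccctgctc
The match began 6 bases before the start site in Sbsn, 81 bases before it in Krtdap, and between 82 and 91 bases before the annotated starts of Dmkn. TATAAA was present in Krt10 and Krtdap, at 26 and 30 bases before the start, and in 15.7% of all genes. These are matches of letters, not measured binding sites.

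Values are linear intensities of probe sets, and brightness cannot be compared between probe sets. Nrf2 targets separated the groups on every array, with Nqo1, a quinone reductase, at 1315, 1432 and 1512 in caNrf2 skin against 72.6, 66.2 and 64.3 in control skin. Log2 intensities of caNrf2 arrays correlated with each other at 0.9976 to 0.9980, those of control arrays at 0.9973 to 0.9977, and arrays of different groups at 0.9949 to 0.9962 (Pearson). RNA quality, read from 3′ over 5′ Actb controls, was 0.525 ± 0.011 in caNrf2 and 0.493 ± 0.012 in control skin as a log2 ratio (SD, 3 arrays each; two-sided exact permutation p = 0.1, which 3 against 3 cannot undercut), and its part in the results below was not tested. Female skin has no Y chromosome, and the 13 probe sets of Y-linked genes had group means from 6.46 to 61.6, taken here as the background range. A difference in a whole-skin sample cannot tell apart fewer cells of a type and less RNA per cell.

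Among the suprabasal genes, 1 rose and 1 fell in caNrf2 skin, and both are type II keratins. Krt78 stood at 1.39 and Krt77 at 0.655 times the control level, while the main pair Krt1 and Krt10 and the secreted markers did not pass the test. In limma with Benjamini-Hochberg adjustment over all probe sets, a probe set was called at an adjusted p under 0.05. By that rule 1 of 12 member probe sets was higher, against 1.04% of all probe sets, and 1 of 12 was lower, against 0.633% of all probe sets, and either way 1.68% of all probe sets were called. The other 10 member probe sets did not pass, at adjusted p of 0.301 or more, and none of them had an unadjusted p under 0.05. The median log2 fold change of the 12 probe sets was 0.03, beside -0.00 for all probe sets.

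**Figure D1:**
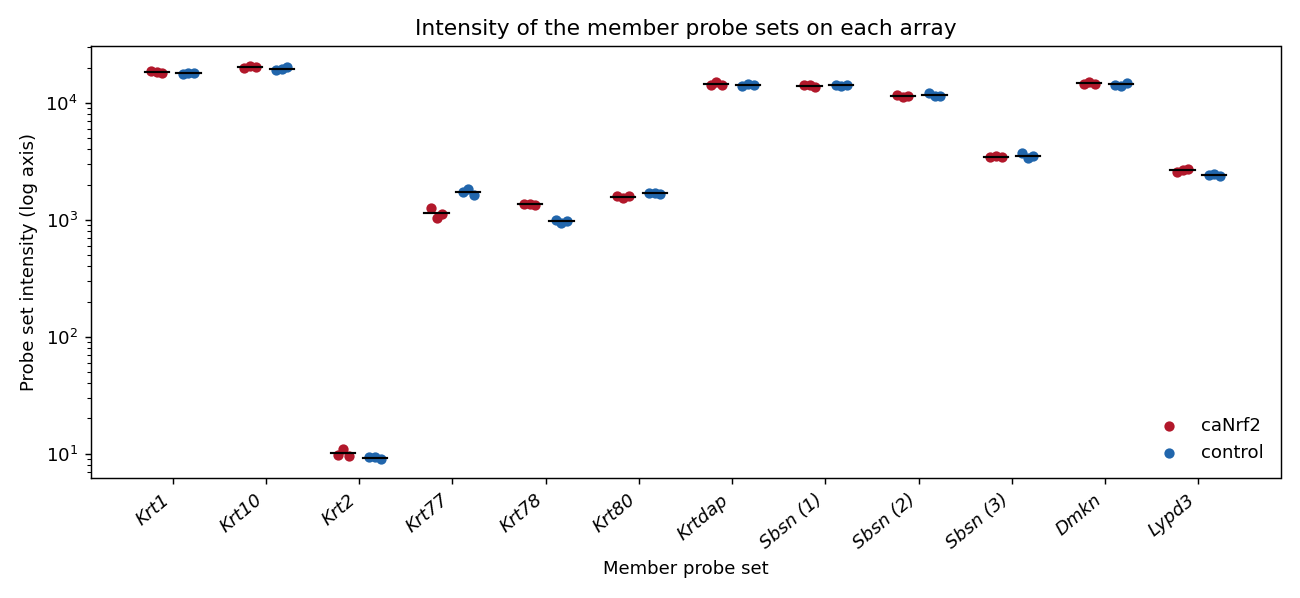
Probe set intensity on a log axis for the 12 member probe sets, with 1 point for each array (caNrf2 left, control right of each name) and a bar at the group mean of 3 arrays. Krt78 lies higher and Krt77 lower in caNrf2 skin without overlap, Krt1 and Krt10 are the brightest in both groups, with means of 20326 for Krt10 in caNrf2 and 19702 in control skin, and Krt2 is the dimmest, with means of 10.1 and 9.25. Sbsn (1), (2) and (3) are its probe sets from brightest to dimmest.

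Krt78, a type II keratin of stratified epithelia, read 1369, 1361 and 1351 in caNrf2 skin against 1003, 939 and 984 in control skin. The groups did not overlap, and the caNrf2 arrays lay closer together than the control arrays. Its mean was 1360 ± 9.43 in caNrf2 and 976 ± 32.7 in control skin (SD, n = 3), which is 0.48 ± 0.06 higher on the log2 scale (SE; 95% interval 0.34 to 0.62; adjusted p = 0.00359 in limma). The call held in each of the 15 alternative settings, at adjusted p up to 0.0215. By rank of brightness it stood between 2886 and 2943 on caNrf2 arrays and between 4167 and 4494 on control arrays.

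Krt77, in the mouse a type II keratin of suprabasal epidermis, read 1275, 1036 and 1115 in caNrf2 skin against 1747, 1828 and 1643 in control skin. All caNrf2 arrays lay below all control arrays, and caNrf2 replicate 1 lay nearest to them. The mean was 1142 ± 121 in caNrf2 and 1739 ± 92.6 in control skin (SD, n = 3), which makes a log2 difference of -0.61 ± 0.09 (SE; 95% interval -0.80 to -0.42; adjusted p = 0.00642 in limma). This call also held in each of the 15 alternatives, at adjusted p up to 0.0385. Krt77 varied most among the member probe sets within the caNrf2 group, with an SD of 0.152 on the log2 scale against 0.010 for Krt78.

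The genes beside these keratins in the RefSeq order of the type II keratin cluster were looked at in turn. Krt77 lies between Krt1, described below, and Krt76, a keratin best known from oral epithelium. Krt76 read 46.9, 66.4 and 51.3 in caNrf2 skin against 32.4, 35.5 and 35.5 in control skin. Both of its group means are inside the range of the Y-linked probe sets, of which at least 11 of 13 lay below both Krt76 means, so whether it was above background is not settled and no fold is given. Its groups did not overlap (limma, adjusted p = 0.0243, and not passing without caNrf2 replicate 3 or any 1 control array, at up to 0.104). Krt78 lies between Krt79, a keratin of the sebaceous duct and upper follicle, and Krt8, a keratin of simple epithelia. Krt79 read 7145, 6888 and 7156 in caNrf2 skin against 7818, 7712 and 7682 in control skin, without overlap, and did not pass (log2 fold change -0.13 ± 0.06, SE; limma, adjusted p = 0.299). Krt8 averaged 111 ± 7.19 in caNrf2 and 122 ± 2.69 in control skin (SD, n = 3) and did not pass (limma, adjusted p = 0.338). Neither neighbour of Krt78 was called.

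**Figure D2:**
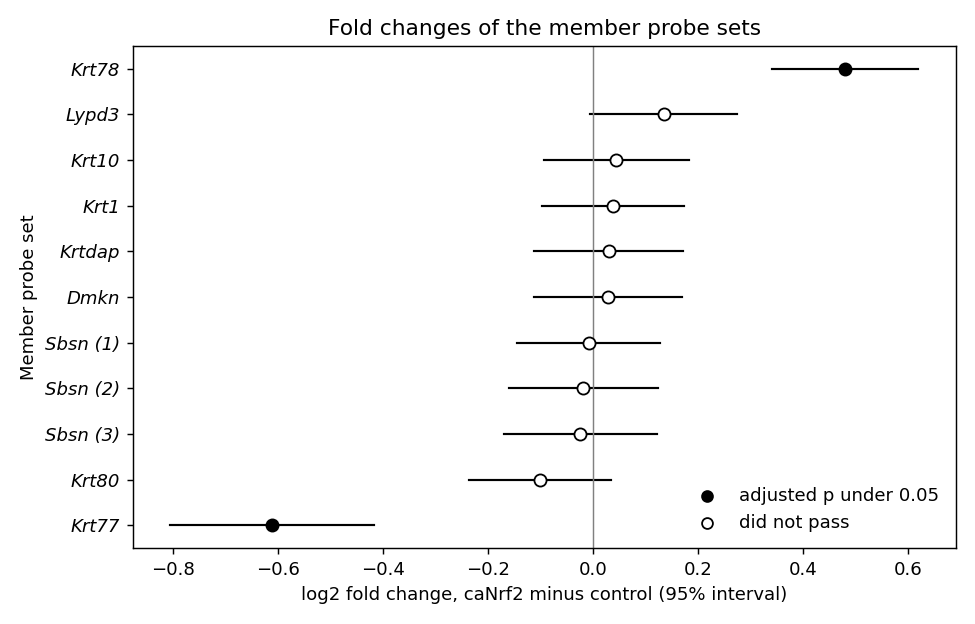
Log2 fold change (caNrf2 minus control) of the 11 member probe sets above background, with 95% intervals from limma on 3 against 3 arrays. Filled points passed at an adjusted p under 0.05. Krt78 (0.48) and Krt77 (-0.61) stand off 0, and the other intervals lie between -0.24 and 0.28.

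Krt10, the type I keratin of suprabasal cells, read 19917, 20875 and 20187 in caNrf2 skin against 19312, 19692 and 20104 in control skin. Its partner Krt1 read 18643, 18480 and 18124 in caNrf2 skin against 17761, 17869 and 18172 in control skin. For both genes the groups overlapped. The log2 fold changes were 0.04 ± 0.06 for Krt10 and 0.04 ± 0.06 for Krt1 (SE; limma, adjusted p = 0.742 and 0.778). The 95% intervals of these differences ran from -0.09 to 0.18 for Krt10 and from -0.10 to 0.17 for Krt1.

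The pair sat at the top of the scale. Krt10 ranked between 1 and 4 of 45037 on caNrf2 arrays and between 3 and 5 on control arrays, and Krt1 between 9 and 11 on caNrf2 arrays and between 11 and 13 on control arrays. The highest value of any probe set on an array lay between 20444 and 21290. The highest of these was 0.11 above the control mean of Krt10 and 0.25 above that of Krt1 on the log2 scale. For Krtdap, Dmkn and the brightest Sbsn probe set the same gap was 0.59, 0.56 and 0.59. Whether a larger rise of Krt10 or Krt1 would have shown on these arrays was not tested.

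Krt80, a type II keratin of differentiating epithelia, read 1584, 1545 and 1592 in caNrf2 skin against 1704, 1694 and 1667 in control skin. The groups did not overlap, but the difference was small, at -0.10 ± 0.06 on the log2 scale (SE; 95% interval -0.24 to 0.03), and did not pass (limma, adjusted p = 0.411). Krt2, a type II keratin known in the mouse from ear, tail and sole skin, read 9.80, 10.9 and 9.49 in caNrf2 skin against 9.33, 9.33 and 9.07 in control skin. These values are in the background range, so the Krt2 probe set is not above background in either group and no fold is given.

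The secreted markers were bright, and their groups overlapped. Dmkn read 14390, 15102 and 14582 in caNrf2 skin against 14271, 14058 and 14858 in control skin, and Krtdap read 14206, 14979 and 14291 in caNrf2 skin against 13833, 14641 and 14105 in control skin. Both differed by 0.03 ± 0.06 on the log2 scale (SE; adjusted p = 0.842 and 0.839 in limma). The brightest Sbsn probe set averaged 14092 ± 252 in caNrf2 and 14168 ± 255 in control skin (SD, n = 3). The second, whose _x_at suffix marks probes that may also bind related transcripts, averaged 11547 ± 234 in caNrf2 and 11695 ± 418 in control skin. The dimmest averaged 3477 ± 40.1 in caNrf2 and 3536 ± 171 in control skin. The 3 Sbsn probe sets gave alike log2 fold changes of -0.01, -0.02 and -0.02 (limma, adjusted p from 0.884 to 0.961), with intervals between -0.17 and 0.13. The signs of these small values turned in some alternatives.

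Lypd3 read 2568, 2692 and 2710 in caNrf2 skin against 2398, 2481 and 2377 in control skin, without overlap. The log2 difference of 0.14 ± 0.06 (SE; 95% interval -0.01 to 0.28) did not pass (limma, adjusted p = 0.301). Over the alternatives its adjusted p ran from 0.157 to 0.550. In all, the groups did not overlap in 5 of 12 member probe sets, 3 higher and 2 lower in caNrf2 skin, against 23.0% of all probe sets, and Krt2 at background is among the 5. For the 9 probe sets that were above background and did not pass, the 95% intervals together spanned -0.24 to 0.28 on the log2 scale, or from -15.1% to 21.0% in intensity.

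**Figure D3:**
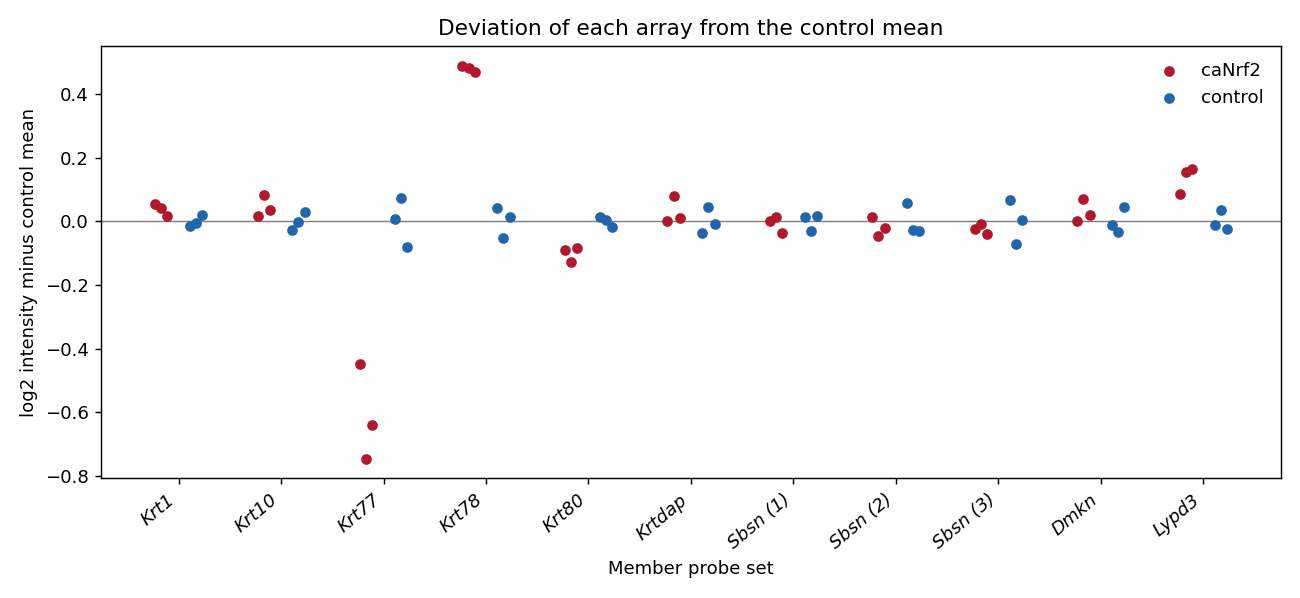
Log2 intensity minus the control mean for each array (caNrf2 left, control right of each name) in the 11 member probe sets above background. The caNrf2 points of Krt78, Lypd3, Krt80 and Krt77 lie outside the control points, and those of Krt77 spread most.

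Probe sets whose log2 intensity most resembled these keratins over the 6 arrays were found among 17008 with a single gene symbol and a mean log2 intensity of at least 7. Nearest to Krt78 were Elovl1, a fatty acid elongase (Pearson r = 0.9983), Entpd5, a nucleotidase of the endoplasmic reticulum (0.9975), and Gclc, the catalytic subunit of glutamate-cysteine ligase (0.9967). Nearest to Krt77 were Mrpl50, a protein of the mitochondrial ribosome (0.9988), Fzd5, a Wnt receptor (0.9982), and Ldb1, a cofactor of LIM domain proteins (0.9943). With 2 groups of 3 arrays such a correlation mostly records the difference between the groups, and 256 candidates exceeded 0.95 for Krt78 and 264 for Krt77. The sizes differed. Entpd5 and Gclc rose, with log2 fold changes of 0.93 and 1.65 beside 0.48 for Krt78, whereas Elovl1, at 0.12, did not pass (limma, adjusted p = 0.339). Beside -0.61 for Krt77, Mrpl50 gave -0.23 and Ldb1 -0.18, and neither passed (limma, adjusted p = 0.130 and 0.180). Fzd5 gave -0.34 (limma, adjusted p = 0.0473), a call that was lost in 9 of the 15 alternatives, among them each that left out 1 array (up to 0.157).

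Genes of neighbouring steps of epidermal differentiation were counted with the brightest probe set standing for a gene. Under that rule 1.51% of all genes were called higher and 0.786% lower. Counts at an unadjusted p under 0.05 are also given for the lists. The share of all genes at that level is not given here, so those counts are not read as results about a list. Of 20 measured genes of the granular layer and cornified envelope, 1 rose, 2 fell and 17 did not pass, with 6 of 20 at an unadjusted p under 0.05 and a median log2 fold change of -0.03. Tgm3, a transglutaminase that cross-links envelope proteins, rose to 882 ± 36.6 in caNrf2 skin, against 658 ± 46.0 in control skin (SD, n = 3; log2 fold change 0.42 ± 0.07, SE; limma, adjusted p = 0.0217). Leaving out any 1 array other than control replicate 1, or fitting a replicate block, ended the Tgm3 call, at adjusted p up to 0.0814. Tchhl1, of the S100-fused proteins, fell by 0.45 ± 0.07 on the log2 scale (SE; limma, adjusted p = 0.00863). Involucrin (Ivl), an envelope precursor, fell to 1509 ± 32.5 in caNrf2 skin, against 2215 ± 221 in control skin (-0.55 ± 0.08, SE; adjusted p = 0.00899), and missed the threshold without caNrf2 replicate 3 (0.0501) or control replicate 3 (0.0513).

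Of 10 measured desmosome genes 0 passed in limma and 2 had an unadjusted p under 0.05, with a median of 0.03 and the smallest adjusted p at Dsg1b (0.40 ± 0.15, SE; adjusted p = 0.211). Of 26 regulators of epidermal differentiation, 1 rose and 25 did not pass, with 6 of 26 at an unadjusted p under 0.05 and a median of -0.06. The riser was Ppard, a lipid-sensing nuclear receptor, at 614, 656 and 709 in caNrf2 skin against 350, 323 and 311 in control skin (log2 fold change 1.01 ± 0.08, SE; limma, adjusted p = 9.28e-05). Its other probe set had values in the background range, so no fold is given for it.

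The basal layer was measured for comparison. Krt5 read 11380, 11289 and 11225 in caNrf2 skin against 11670, 11222 and 10923 in control skin, and Krt14 averaged 13145 ± 137 in caNrf2 and 12229 ± 177 in control skin (SD, n = 3), and neither passed (limma, adjusted p = 0.981 and 0.397). The Krt14 groups did not overlap. Of 11 basal markers 1 fell, Krt15, at -0.30 ± 0.06 (SE; limma, adjusted p = 0.0482), which no longer passed when any 1 array was left out, with arrays centred on their median or on the basal markers, or with a replicate block (up to 0.165). Itgb4 (0.33 ± 0.09) and Itga3 (0.19 ± 0.08) were higher without overlap and did not pass (SE; limma, adjusted p = 0.104 and 0.248). Of the 11, 3 had an unadjusted p under 0.05. With arrays centred on the basal markers, Krt78 gave 0.48 and Krt77 -0.61, the values of the uncentred arrays. Of 4 stress keratins, Krt16 rose by 1.64 ± 0.10 (SE; limma, adjusted p = 2.09e-05), and Krt6a, Krt6b and Krt17 did not pass.

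Markers of other cells of skin are given as summed intensities by array, in which the brightest probe sets weigh most. The 8 inner root sheath markers summed to between 53475 and 56154 in caNrf2 and between 60748 and 61535 in control skin, with 1 of 8 lower (Krt26, -0.53 ± 0.08, SE; limma, adjusted p = 0.00903), 6 of 8 at an unadjusted p under 0.05 and a median of -0.21. The Krt26 call was lost without caNrf2 replicate 3 (adjusted p = 0.0501). The 4 sebocyte markers summed to between 7839 and 8151 in caNrf2 and between 8935 and 9223 in control skin, with Scd3 and Elovl3 lower at -0.92 and -0.38 (Elovl3 missed the threshold when any 1 array was left out, at up to 0.14). Most of each sebocyte sum was Krt79, which did not pass, at means of 7063 in caNrf2 and 7737 in control skin. The 5 melanocyte markers summed to between 9254 and 10172 in caNrf2 and between 10777 and 11483 in control skin, with 0 of 5 called in limma, 5 of 5 at an unadjusted p under 0.05 and a median of -0.20. The 6 fibroblast markers also summed lower, at 68967 to 70495 in caNrf2 and 71072 to 73629 in control skin. Of the 4 adipocyte markers 1 was lower (Lep, -0.58), at means of 123 in caNrf2 and 183 in control skin. The other adipocyte markers did not pass and lay between -0.04 and 0.07, and the median of the list was -0.01. Limma called 0 of 6 fibroblast, 6 muscle, 4 endothelial and 5 immune markers, with 0, 1, 0 and 2 at an unadjusted p under 0.05. No marker was listed at 0, but the lowest value of any probe set on any array was 5.63, so this says nothing about detection. The summed basal markers overlapped, at 38171 to 38446 in caNrf2 and 38123 to 39281 in control skin. Sums of adipocyte markers overlapped too, at 19295 to 20537 in caNrf2 and 19250 to 20511 in control skin. So did those of muscle markers, at 43595 to 44870 in caNrf2 and 44162 to 47068 in control skin. Endothelial sums, at 1018 to 1093 in caNrf2 and 1016 to 1077 in control skin, also overlapped. Immune sums overlapped as well, at 2939 to 3361 in caNrf2 and 3063 to 3185 in control skin. Beside these, sums of granular layer genes did not overlap, at 80511 to 83136 in caNrf2 and 78866 to 80386 in control skin. Nor did those of stress keratins, at 11880 to 13915 in caNrf2 and 11085 to 11397 in control skin. Regulators summed lower without overlap, at 35997 to 36926 in caNrf2 and 37346 to 38639 in control skin. Sums of the desmosome list and of the suprabasal genes overlapped. The part of the marker shifts above in the values of Krt77 and Krt78 was not tested.

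**Figure D4:**
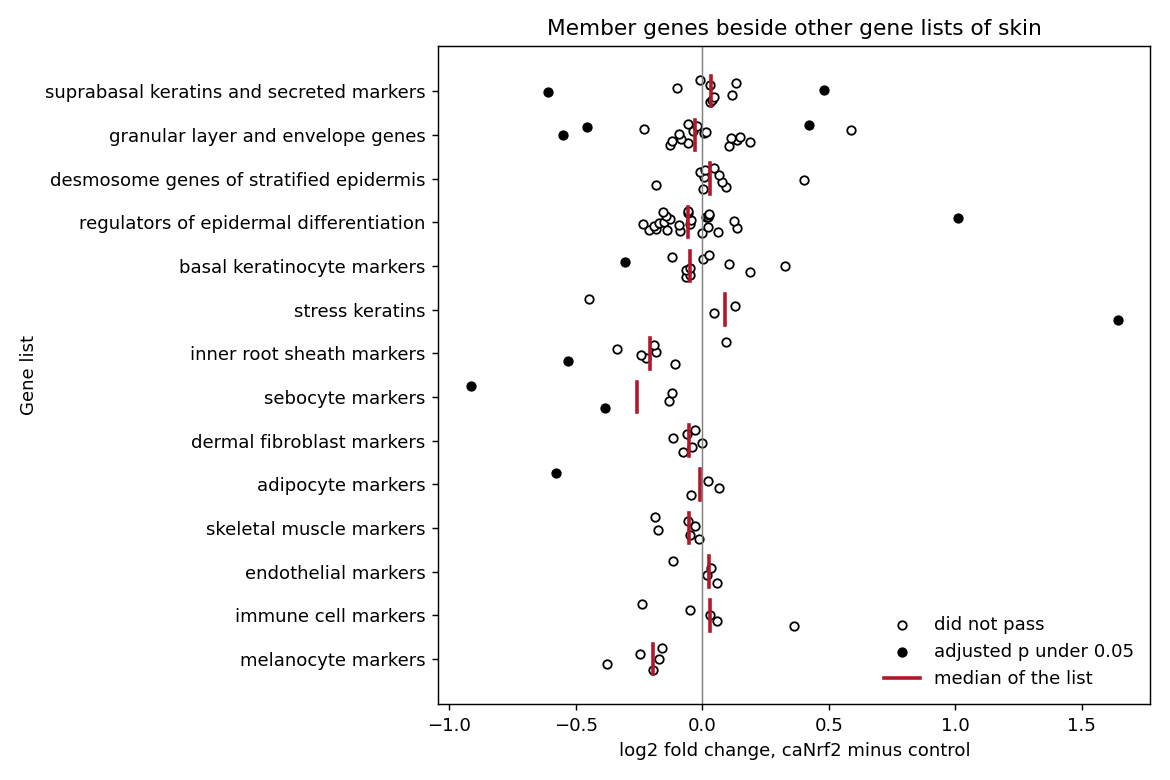
Log2 fold change (caNrf2 minus control) of each measured gene in the suprabasal set and in 13 other gene lists of skin, with 1 point for each gene, filled where the adjusted p was under 0.05, and a red bar at the median of the list. The suprabasal genes cluster near 0, apart from Krt78 on the right and Krt77 on the left.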

How the data were processed

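RNA of whole back skin from 3 caNrf2 and 3 control mice was measured on Affymetrix arrays, from 2 ug of RNA per the labels' protocols. The authors deposited 1 linear intensity for each probe set and array, computed by RMA as the submitters' processing notes record, with no version given in the sources used here. Because RMA forces all arrays to nearly the same distribution, a general shift of expression would be hidden. The genes and lists were chosen with earlier results of these data known, so their directions are no independent evidence.

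The table held 45101 probe sets. Of these, 64 controls were left out, and 34945 of the rest had 1 gene symbol. The log2 of each intensity went into limma 3.58.1 under R 4.3.3 (lmFit, then eBayes), in a model of group alone with 4 residual and 5.72 prior degrees of freedom, and no filter on dim probe sets. P-values were two-sided and adjusted by Benjamini-Hochberg over 45037 probe sets. Alternatives changed the filter, the probe set standing for a gene, the offset before log2, the variance model, array weights, normalization, a replicate block, or left out 1 array. Errors are SD for levels and SE for fold changes. Exact permutation tests used scipy 1.17.1. The fit was tested on simulated data. Of 136 other list entries, 126 were measured, with symbols updated through Entrez identifiers in the RefSeq table, and the others are not analysed here. Genes named outside the set are up to 4 with the smallest p in each epidermal list and called genes of other lists. The nearest neighbours of called members and the 3 probe sets most like Krt77 and Krt78 are named too. Krt5 and Nqo1 were added after values were seen. The number of arrays limits the precision.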

Additional observations from a re-analysis of the deposited data

How the results depend on the processing

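Among the member probe sets 1 was called higher and 1 lower in each of the 15 alternatives, of which 6 left out an array (Krt2 was not in the fit with a filter on dim probe sets, nor 2 of the Sbsn probe sets in that with 1 probe set per gene), so the calls of Krt78 and Krt77 rested on no single array. Counts over all probe sets, 470 higher and 285 lower, did move. Lower calls numbered 428 with log2(intensity + 16), 610 with an intensity trend and robust variances and 177 with a replicate block. With 1 array left out, higher calls ranged from 280 to 354 and lower calls from 79 to 270. Counts of the gene lists moved as well. Over the 15 alternatives, lower calls ran from 0 to 6 among inner root sheath markers (1 as reported), from 1 to 2 among sebocyte markers (2) and granular layer genes (2), from 0 to 1 among basal markers (1) and regulators (0), and from 0 to 2 among melanocyte markers (0). Higher calls ran from 0 to 2 among granular layer genes (1) and from 0 to 1 among basal and immune markers (0 each). The cause was not tested. The brightest Sbsn probe set, at -0.01 on the log2 scale, gave 0.0080 after a further quantile normalization and 0.000727 with arrays centred on their median. With 1 array left out it ranged from -0.0227 to 0.00682, being positive without caNrf2 replicate 3 or control replicate 3 (0.000995), the second Sbsn probe set from -0.0332 to 0.0115 and the dimmest from -0.0591 to 0.0109, both positive without control replicate 1. Differences from Krt10 within an array were planned, but Krt10 is near the top of the scale on every array, so they add little to each keratin's own value and nothing is read from them. Krt1 minus Krt10 differed between the groups by -0.0067 and Krt77 minus Krt10 by -0.66 (two-sided exact permutation p = 0.8 and 0.1, where 0.1 is the smallest possible). Krt1 minus Krt10 ranged from -0.0301 to 0.0101 with 1 array left out, being 0.0101 without caNrf2 replicate 2 and 0.000742 without control replicate 1, and Krt77 minus Krt10 from -0.752 to -0.569. No second probe set existed for these 3 keratins, so that alternative gave no value. Whether the replicate numbers of the titles pair the mice was not settled. Deviations from the group means correlated at 0.041, 0.157 and 0.083 between same-numbered arrays and from -0.139 to 0.069 between the others. Every array correlated best with its own number except caNrf2 replicate 1, which did so with control replicate 3. With the replicate block Krt78 had an adjusted p of 0.0191 and Krt77 of 0.0248 in limma. The highest value on any array was 0.11 above the control mean of Krt10 on the log2 scale, and Krt2 was not above background.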
